A study of Mus musculus with 24 samples.

Results

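Genes of the transforming growth factor beta (TGF-beta) pathway were followed in mouse cortex after a stroke model. The 8 members were named by role: the ligands Tgfb1, Tgfb2 and Tgfb3, the receptors Tgfbr1, Tgfbr2 and Tgfbr3, and the signal transducers Smad3 and Smad7. They were found by gene symbol among the 14769 genes listed in at least 1 of 4 tables of log2 CPM (CPM is a gene's read count scaled to the size of its library). Of the 8, 7 were listed in all 4 tables, and Tgfb1 was not analysed here. All animals were male mice aged 3 to 4 months that had been through transient occlusion of the middle cerebral artery for 1 h followed by 1 day of reperfusion, and the strain label C57BL/6N-Cdr1asem1Nikr is the same for every sample. They were WT or ciRS-7 KO, that is, lacking the circular RNA of the Cdr1as locus. Each animal gave a library from its CL and its PI cortex, as the labels name them without spelling them out, which makes 4 groups of 6 libraries, CL WT and PI WT in 1 genotype and CL KO and PI KO in the other. No sample of an unoperated animal was among the 24, so CL of the same genotype is the reference for PI.

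TGF-beta ligands are secreted in a latent complex and, once released, bind the receptor encoded by Tgfbr2, which recruits and phosphorylates the one encoded by Tgfbr1. The activated Tgfbr1 kinase phosphorylates SMAD2 and SMAD3, which enter the nucleus with SMAD4 and regulate target genes, whereas SMAD7 is an induced inhibitor that acts at the receptors. In the brain the pathway is known for maintaining microglial identity, for vascular stability and for scar formation after injury.

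The receptor gene Tgfbr2 and its partner Tgfbr1 are shown with their promoters, because Tgfbr2 was the one member whose level passed the test between the cortices and Tgfbr1 encodes the other chain of the same receptor complex. The sequences run from 250 bases before to 50 after the gene start and come from RefSeq (GRCm38.p6, minus strand at chr9:116175314-116175613 for Tgfbr2, plus strand at chr4:47352972-47353271 for Tgfbr1). Both strands were searched for CAGAC, a short site that SMAD proteins bind. The AP-1 site, bound by FOS and JUN proteins, was searched as TGANTCA. The GC box, bound by Sp1 and related factors of many housekeeping promoters, was searched as GGGCGG. The TATA box, where present the site that positions the start of transcription, was searched as TATAAA. The last motif, bound by the factor NF-Y, was the CCAAT box. Matches are in capitals, and none overlapped another.
Tgfbr2: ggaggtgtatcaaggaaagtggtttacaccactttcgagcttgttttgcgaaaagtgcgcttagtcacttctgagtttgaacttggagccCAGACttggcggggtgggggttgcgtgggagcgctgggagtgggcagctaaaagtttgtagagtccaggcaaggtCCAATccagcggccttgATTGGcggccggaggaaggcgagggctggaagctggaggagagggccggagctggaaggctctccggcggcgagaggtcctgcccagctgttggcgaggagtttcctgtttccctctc
Tgfbr1: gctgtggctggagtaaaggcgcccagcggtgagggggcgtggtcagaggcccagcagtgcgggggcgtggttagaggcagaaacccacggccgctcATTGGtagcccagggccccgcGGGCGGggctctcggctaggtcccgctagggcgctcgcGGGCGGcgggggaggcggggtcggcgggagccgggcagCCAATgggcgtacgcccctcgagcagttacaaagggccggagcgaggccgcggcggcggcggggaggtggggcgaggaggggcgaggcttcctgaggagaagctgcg

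The Tgfbr2 window held 1 CAGAC, at position -160 from the start, and 2 CCAAT boxes. The Tgfbr1 window held 2 GC boxes and 2 CCAAT boxes and no CAGAC. Among 32851 promoters of the same length, 49.6% held CAGAC, 37.4% CCAAT and 35.7% GGGCGG. The AP-1 letters were in 7.81% of them and in neither of the windows shown. Sequences were matched for 4 of the 7 listed members. The Tgfb2 window held 2 CAGAC, 1 CCAAT box and 1 TATAAA, and the Smad3 window held 2 GC boxes. A match describes the letters only.

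The KO removes ciRS-7, a circular RNA known for its many sites for the microRNA miR-7, so the members' 3′ untranslated regions were searched for the complement of the miR-7 seed. The mature sequence of miR-7a, from RefSeq, is shown with its seed (bases 2 to 8) in capitals, followed by the match in Tgfbr2 with the 7 complementary bases in capitals.
mmu-miR-7a-5p: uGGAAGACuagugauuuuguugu
Tgfbr2 site: tctgctgctggGTCTTCCagcttgccatg

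The match lies at bases 1005 to 1011 of a Tgfbr2 3′ untranslated region of 6085 bases. It was the single match among the 7 members, in the longest coding transcript of each (GENCODE vM21). The same 7 letters were found in 14.3% of 12604 genes listed in the tables.

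By the GRCm38 annotation Tgfbr2 spans chr9:116084293-116175360 and Smad3 chr9:63646767-63757994, both on the minus strand. Tgfbr1 spans chr4:47353222-47414931 on the plus strand. Tgfbr3 spans chr5:107106570-107289629, Tgfb2 chr1:186622792-186705989 and Tgfb3 chr12:86056745-86079041, all on the minus strand. Exons of Tgfb2 and Tgfb3 overlap those of annotated genes on the opposite strand, and exons of Tgfbr3 overlap a further annotated gene on its own strand. Whether the counting used strand is not given in the sources used here, so reads of Tgfb2 and Tgfb3 and of their overlapping genes may not be separated. Strand cannot separate reads shared by Tgfbr3 and the gene on its own strand.

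The row of the targeted gene followed the labels. Cdr1as stood between 11.75 and 11.89 log2 CPM in the 6 CL WT libraries and between -7.97 and -4.06 in the 6 CL KO libraries. In PI it stood between 11.35 and 11.52 in WT and between -9.97 and -2.59 in KO. Effective depth, recovered from the steps of low values, was 3.75 to 10.5 M (mega) reads per library (median 6.91 M). CL KO replicate 6 stood apart, with at most 3.83 M reads where the other 23 libraries had at least 5.27 M reads. Its deposited value lay strictly between the lowest and the highest of its group for 10.5% of genes, against 19.3% to 47.0% for the other libraries. Values tied at either end are not in this share. Of the members' calls, that of Tgfbr2 in KO was lost without it, and no member not called became called. Neuronal markers, 10 of 10 listed, summed to 8147 to 8882 CPM in PI WT and 9516 to 10190 in CL WT, and to 7834 to 8645 in PI KO and 9577 to 9901 in CL KO, with 4 of 10 called lower in PI in either genotype. Astrocyte markers, 9 of 9 listed, summed to 6650 to 7063 CPM in PI WT and 7642 to 8050 in CL WT, and to 6453 to 7149 in PI KO and 7660 to 8164 in CL KO. Of the astrocyte markers 1 was called higher and 3 lower in PI WT, and 1 higher and 1 lower in PI KO. The higher one was Aqp4, by 0.27 and 0.41 log2. Slc1a2, at 12.47 log2 CPM in PI WT and 12.71 in CL WT, makes up most of the astrocyte sum. The deposited sums of PI and CL did not overlap for either list. The deposited extremes of each group had been drawn in to the quartile, which narrows these ranges. The part of these cell types in the members' values was not tested.

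Per kilobase of exon, on the CPM scale, the members kept a similar order in the 4 groups. In CL WT the level was 8.49 CPM per kb for Smad3 and 7.69 for Tgfbr1. Smad7 (2.63), Tgfb3 (2.50), Tgfbr3 (2.37), Tgfbr2 (1.67) and Tgfb2 (1.20) followed. Smad3 and Tgfbr1 were thus well above the other 5, and Smad7, Tgfb3 and Tgfbr3 lay close to one another, with neighbours about 1 SE apart. The other neighbours in this order were further apart than their spread. In PI WT Tgfbr2 stood at 2.59 CPM per kb, between Tgfbr3 (2.87) and Tgfb3 (2.50). Tgfb2 was last in all 4 groups, with 1.20 (CL) and 1.48 (PI) CPM per kb in WT and 1.14 (CL) and 1.37 (PI) in KO. At the median depth of a group a member was represented by about 46.4 reads (Tgfb2 in CL KO) to 376 reads (Smad3 in PI WT).

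**Figure D1:**
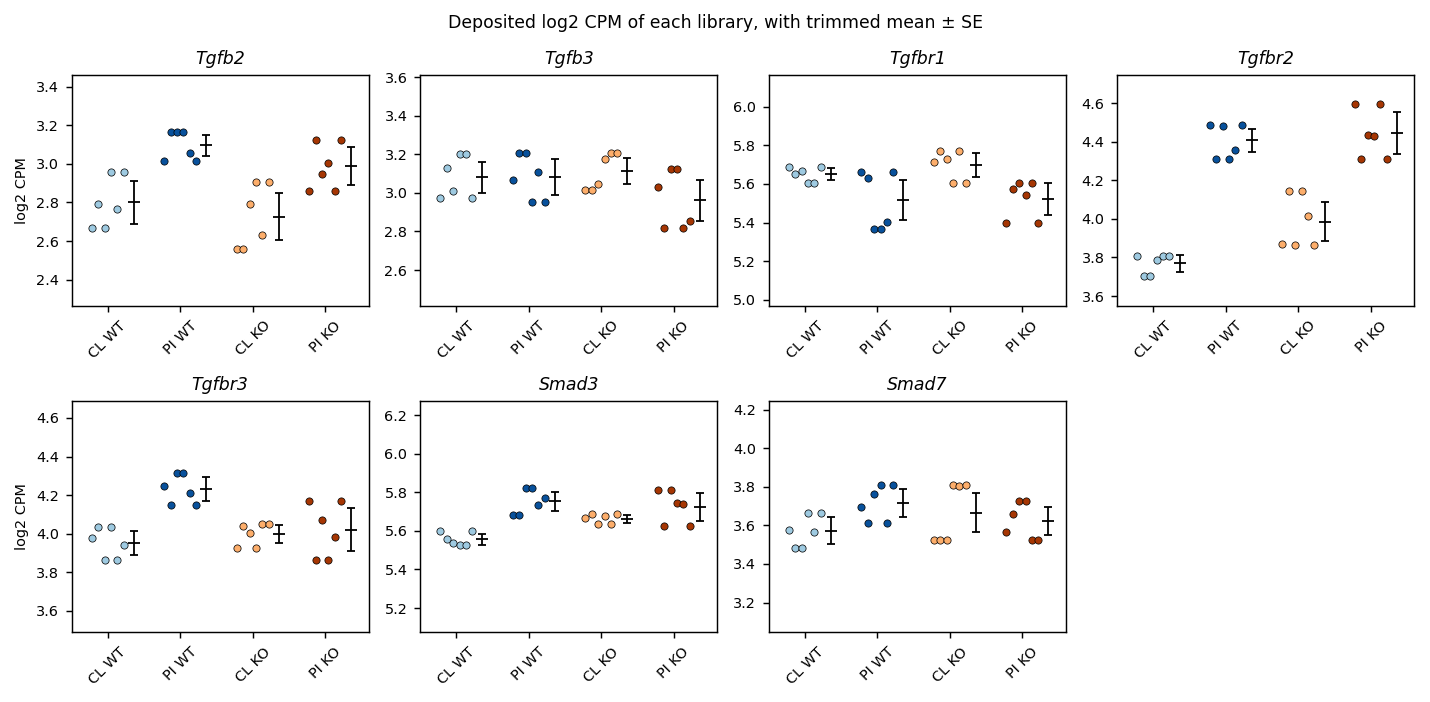
Deposited log2 CPM (vertical axis, each panel spanning the same range) of the 7 listed members in the 24 libraries, by group; bars show the mean of the 4 inner values ± SE. The WT groups come from 1 table and the KO groups from another, each scaled on its own. Tgfbr2 is higher in PI than in CL in both genotypes, with group means of 3.77 and 4.41 in WT and 3.98 and 4.45 in KO.

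The first question was how the members differed between PI and CL cortex of WT animals. Tgfbr2 was higher in PI, by 1.55-fold, and none of the other 6 passed the trimmed-mean test, which compares the recoverable values. Of the 7 members 1 was called by it, that is, had an adjusted p under 0.05, where 10.6% of all 14489 genes were called (5.2% as higher). The median log2 fold change was 0.20 over the members and 0.01 over all genes. At an unadjusted p under 0.05 the count was 4 of 7 members, against 23.9% of all genes. limma on the deposited values, whose spread had been drawn in, called 5 of 7 members (Tgfb2, Tgfbr2, Tgfbr3, Smad3 and Smad7) and 44.6% of all genes. In bulk cortex a change in the number of cells of a type and a change in RNA per cell cannot be told apart, here or in the results that follow.

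Among the ligands, Tgfb2 had recoverable values from 2.63 to 3.01 log2 CPM in CL WT (median 2.78) and from 3.00 to 3.17 in PI WT (median 3.11). Recoverable values are the second lowest to the second highest of 6, because the deposited extremes were drawn in. The recoverable PI values lay mostly above those of CL, with a slight overlap. Its log2 fold change was 0.30 (SE 0.14, adjusted p = 0.203). Tgfb3 ranged from 2.96 to 3.22 in CL WT (median 3.07) and from 2.91 to 3.24 in PI WT (median 3.09). Its groups overlapped throughout, with a log2 fold change of 0.00 (SE 0.13, adjusted p = 0.995) and 3 of 6 animals higher in PI. Counts of animals, here and below, use deposited values, so the sign of a pair with a drawn-in value is not settled. The 95% interval of the Tgfb3 change ran from -0.28 to 0.29.

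Of the receptors, Tgfbr2 ranged from 3.67 to 3.81 log2 CPM in CL WT (median 3.80) and from 4.30 to 4.49 in PI WT (median 4.42). The recoverable values did not overlap. The log2 fold change was 0.64 (SE 0.09, adjusted p = 0.000935), a fold of 1.55 with a 95% interval from 1.35 to 1.78. By p it ranked 182 of 14489 genes. The deposited values of an animal's cortices were 0.52 to 0.78 apart on the log2 scale; they include the drawn-in ones, so the true difference is not known for each animal. The call held in 12 of 12 fits that each left out 1 library, with an adjusted p of at most 0.00384.

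Tgfbr1, the kinase partner of Tgfbr2, ranged from 5.59 to 5.70 log2 CPM in CL WT (median 5.66) and from 5.35 to 5.67 in PI WT (median 5.52). The PI libraries were more spread and reached into the CL range. The log2 fold change was -0.14 (SE 0.09, adjusted p = 0.426), and the deposited value was lower in PI in 6 of 6 animals, by 0.02 to 0.30. Drawn-in values are among these, so the true sign is not known for each animal. Tgfbr3, the co-receptor betaglycan that presents ligand to Tgfbr2, ranged from 3.84 to 4.05 in CL WT (median 3.96) and from 4.13 to 4.34 in PI WT (median 4.23). Its recoverable values did not overlap, but the log2 fold change of 0.28 (SE 0.10, adjusted p = 0.0902) missed the threshold.

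Smad3, which carries the signal to the nucleus, ranged from 5.52 to 5.61 log2 CPM in CL WT (median 5.55) and from 5.67 to 5.84 in PI WT (median 5.75). These recoverable values did not overlap either. Smad3 had a log2 fold change of 0.20 (SE 0.07, adjusted p = 0.0883). The inhibitor Smad7 ranged from 3.45 to 3.69 in CL WT (median 3.57) and from 3.59 to 3.83 in PI WT (median 3.73). Its groups overlapped, and the log2 fold change was 0.14 (SE 0.11, adjusted p = 0.477). Recoverable values were all higher in PI for 3 of 7 members (Tgfbr2, Tgfbr3 and Smad3), where the same held for 13.2% of all genes.

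The second question was the same comparison in ciRS-7 KO animals. Tgfbr2 was again higher in PI and again the single member called by the trimmed-mean test, where 10.0% of 14338 genes were called (5.11% as higher). The median log2 fold change was 0.02 over the members and 0.00 over all genes, and 1 of 7 members had an unadjusted p under 0.05, against 24.9% of all genes. limma on the deposited values called 3 of 7 members (Tgfb2, Tgfbr1 and Tgfbr2) and 46.5% of all genes.

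Tgfbr2 ranged from 3.87 to 4.19 log2 CPM in CL KO (median 3.94) and from 4.27 to 4.65 in PI KO (median 4.43). The recoverable values did not overlap, as for 13.4% of all genes in the same direction. The deposited values of an animal's cortices were 0.17 to 0.72 apart. The log2 fold change was 0.46 (SE 0.13, adjusted p = 0.0405), a fold of 1.38 with a 95% interval from 1.13 to 1.67. This call was close to the threshold: it held in 4 of 12 fits that left out 1 library and was lost without PI KO replicate 1, 3, 4 or 5 or CL KO replicate 1, 3, 5 or 6, with adjusted p up to 0.101. Without the shallow library CL KO replicate 6 the log2 fold change was 0.42 (adjusted p = 0.083). The call was also lost with no trend of the prior variance (adjusted p = 0.095) and with each group centred on its median gene (adjusted p = 0.052).

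**Figure D2:**
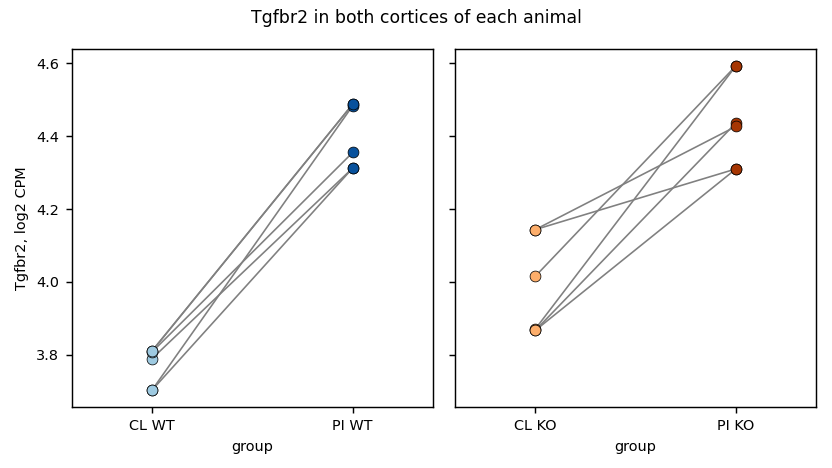
Deposited log2 CPM of Tgfbr2 (vertical axis) in the CL and PI cortex of each animal, WT on the left and ciRS-7 KO on the right; each line joins the libraries of 1 animal, and tied libraries share a point. The deposited CL and PI values do not overlap in either genotype, and the rise per line is 0.52 to 0.78 in WT and 0.17 to 0.72 in KO.

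The ligands were not called in KO animals. Tgfb2 ranged from 2.53 to 2.94 log2 CPM in CL KO (median 2.71) and from 2.83 to 3.17 in PI KO (median 2.98), with overlapping groups. Its log2 fold change was 0.26 (SE 0.16, adjusted p = 0.344). The deposited value was higher in PI in 6 of 6 animals, a count that includes drawn-in values. Tgfb3 ranged from 3.01 to 3.22 in CL KO (median 3.11) and from 2.81 to 3.16 in PI KO (median 2.94). Its groups overlapped, 2 of 6 animals were higher in PI, and the log2 fold change was -0.15 (SE 0.14, adjusted p = 0.566).

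Tgfbr1 ranged from 5.57 to 5.78 log2 CPM in CL KO (median 5.72) and from 5.35 to 5.62 in PI KO (median 5.56). The groups overlapped slightly, with a log2 fold change of -0.18 (SE 0.09, adjusted p = 0.256). The deposited value was lower in PI in 6 of 6 animals, as in WT, again with drawn-in values among them. Tgfbr3 ranged from 3.90 to 4.06 in CL KO (median 4.02) and from 3.82 to 4.20 in PI KO (median 4.03). Here the PI range enclosed the CL range, and the log2 fold change was 0.02 (SE 0.12, adjusted p = 0.942) with 3 of 6 animals higher.

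Smad3 ranged from 5.62 to 5.69 log2 CPM in CL KO (median 5.67) and from 5.59 to 5.84 in PI KO (median 5.74). The PI range enclosed the CL range, and the log2 fold change was 0.06 (SE 0.08, adjusted p = 0.678). Smad7 ranged from 3.52 to 3.81 in CL KO (median 3.66) and from 3.51 to 3.75 in PI KO (median 3.61), with a log2 fold change of -0.04 (SE 0.13, adjusted p = 0.867). For Tgfbr3, Smad3 and Smad7 the KO libraries thus showed no order of PI and CL beyond their spread.

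Whether the PI and CL cortices differed to a different extent in the 2 genotypes was tested as the interaction of genotype and side. With the trimmed-mean test 0 of 7 members and 0.0% of 14211 genes were called, and at an unadjusted p under 0.05 it was 0 of 7 members and 4.55% of genes. limma on the deposited values called 1 of 7 members, Tgfbr3, and 13.7% of all genes. The estimates, KO minus WT, were negative for 7 of 7 members, from -0.26 to -0.04 with a median of -0.15, where the median over all genes was 0.00. For Tgfbr2 the estimate was -0.18 (SE 0.16, 95% interval -0.51 to 0.16). For Tgfbr3 it was -0.26 (SE 0.15, 95% interval -0.58 to 0.06). Zero lay inside the interval of every member, and the sign of Tgfb2 and Tgfbr1 turned in some fits that left out 1 library.

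The third question was the effect of the KO within a side. In PI cortex no member was called, where 0.0208% of 14452 genes were, and 0 of 7 had an unadjusted p under 0.05 against 5.75% of genes. limma on the deposited values called 1 of 7, Tgfbr3, and 16.5% of all genes. The level of Tgfbr2 was 4.32 to 4.52 log2 CPM in PI WT (median 4.45) and 4.30 to 4.68 in PI KO (median 4.47). These ranges lay one inside the other, and the log2 fold change of KO over WT was 0.04 (SE 0.11, 95% interval -0.20 to 0.29). The difference furthest from 0 was that of Tgfbr3, with 4.16 to 4.35 in PI WT (median 4.26), 3.85 to 4.23 in PI KO (median 4.06), and a log2 fold change of -0.20 (SE 0.12, adjusted p = 0.861). Estimates for the other 5 lay between -0.12 (Tgfb3) and 0.01 (Tgfbr1).

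In CL cortex no member was called, where 0.0279% of 14323 genes were, and 0 of 7 had an unadjusted p under 0.05 against 5.73% of genes. limma on the deposited values called 2 of 7, Tgfbr2 and Smad3, and 16.1% of all genes. Tgfbr2 ranged from 3.64 to 3.78 log2 CPM in CL WT (median 3.76) and from 3.84 to 4.16 in CL KO (median 3.92). The recoverable KO values lay above the recoverable WT values with no overlap, and the log2 fold change was 0.22 (SE 0.11, adjusted p = 0.878), or 0.26 without CL KO replicate 6. Smad3 ranged from 5.49 to 5.58 in CL WT (median 5.51) and from 5.60 to 5.66 in CL KO (median 5.64), again without overlap of the recoverable values. Its log2 fold change was 0.11 (SE 0.06, adjusted p = 0.878), and 0.11 without CL KO replicate 6. Such separation upwards was seen in 2 of 7 members and in 4.35% of all genes. The other 5 estimates lay between -0.07 (Tgfb2) and 0.10 (Smad7). The comparisons within a side use the same libraries as those within a genotype, so they are not independent of them.

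**Figure D3:**
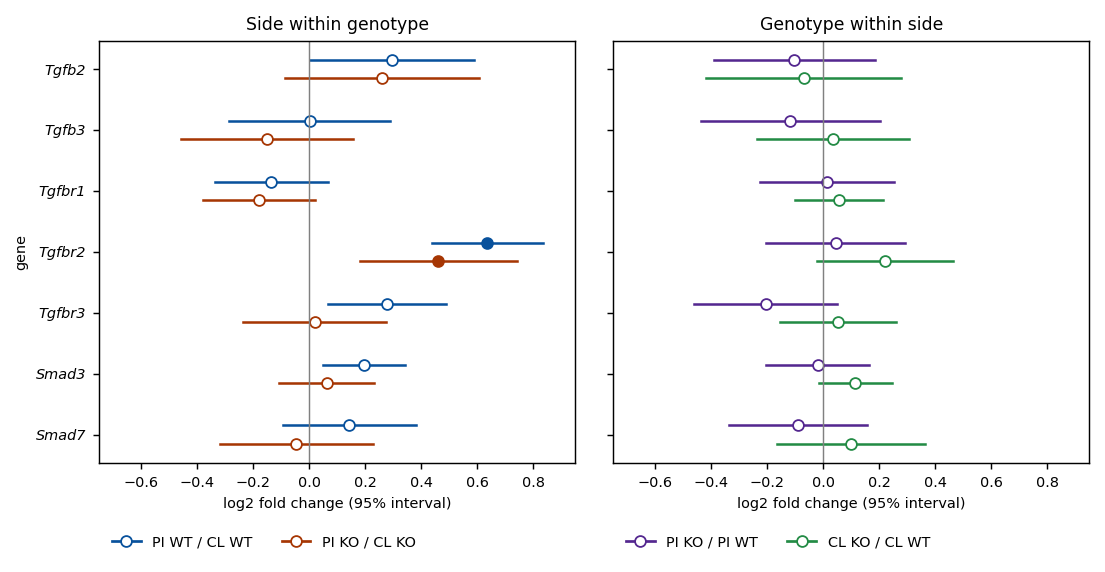
Log2 fold change of each listed member (horizontal axis, point with 95% interval), PI over CL within each genotype on the left and KO over WT within each side on the right. Filled points have an adjusted p under 0.05: Tgfbr2 at 0.64 in WT and 0.46 in KO, and no member in the genotype comparisons.

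Other genes of the pathway were taken from 6 lists of 94 genes in all. In WT animals 21 of the 77 listed genes were called between PI and CL, 16 higher and 5 lower, with a median log2 fold change of 0.12. In KO animals 11 of 76 were called, 9 higher and 2 lower, with a median of 0.07. Against 10.6% and 10.0% of all genes, these are 27.3% and 14.5% of the lists. The lists were chosen with earlier results of these data known, so the shares are descriptive and carry no test. A gene called in 1 genotype and not in the other is not shown to differ between them. In the comparisons of KO with WT, 0 of 78 genes were called in PI and 0 of 75 in CL by the trimmed-mean test and the interaction was called for 0 of 76. At an unadjusted p under 0.05 the counts were 8 (10.3%), 12 (16%) and 5 (6.58%), beside 5.75%, 5.73% and 4.55% of all genes. limma on the deposited values called 14 (17.9%), 18 (24%) and 13 (17.1%), beside 16.5%, 16.1% and 13.7% of all genes.

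Upstream of the receptors, in the latency and activation list, 2 of 12 genes were higher and 1 was lower in PI WT. Thbs1, thrombospondin 1, which releases TGF-beta from its latent complex, had a log2 fold change of 2.06 (SE 0.42, adjusted p = 0.00733) in WT and 1.79 (SE 0.47, adjusted p = 0.0314) in KO. Its CL level was low, 0.76 and 0.88 log2 CPM, and the KO call held in 4 of 12 fits that left out 1 library (1.63, adjusted p = 0.071, without CL KO replicate 6). The membrane protease gene Mmp14 was higher in WT by 0.66 (SE 0.15, adjusted p = 0.0156) and stood at 0.37 (adjusted p = 0.152) in KO. Itgb8, the integrin chain that activates latent TGF-beta in the brain, was lower in WT by a log2 fold change of -0.23 (SE 0.06, adjusted p = 0.0408), a call that held in 3 of 12 such fits, and stood at -0.07 (adjusted p = 0.703) in KO. In KO 1 of 11 genes of this list, Thbs1, was called.

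Among 12 other receptors and co-receptors, 1 was called in WT and 0 in KO by the trimmed-mean test (in KO, 3 at an unadjusted p under 0.05 and 7 by limma on the deposited values). Acvr2a, a type II receptor for activins, stood at a log2 fold change of -0.22 (SE 0.05, adjusted p = 0.0191) in WT and at -0.23 (SE 0.09, adjusted p = 0.125) in KO. Of the 5 other SMADs listed, Smad5 and Smad9, which carry BMP signals, were higher in WT by 0.26 (adjusted p = 0.0352) and 0.28 (adjusted p = 0.0493), each in 2 of 12 fits that left out 1 library. In KO Smad5 was higher by 0.32 (SE 0.07, adjusted p = 0.0124) in 12 of 12 such fits, and Smad9 stood at 0.20 (adjusted p = 0.353). None of the genes named here from these 2 lists changed by more than 1.5-fold.

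Of 12 inhibitors and SMAD cofactors, 2 were called as higher in either genotype. Dcn encodes decorin, a matrix proteoglycan that binds TGF-beta, and had a log2 fold change of 1.32 (SE 0.18, adjusted p = 0.000654) in WT and 1.11 (SE 0.21, adjusted p = 0.00512) in KO. Skil, the corepressor SnoN, was higher by 0.21 (SE 0.05, adjusted p = 0.0206) in WT and 0.23 (SE 0.06, adjusted p = 0.0254) in KO. The Skil calls held in 8 and 9 of 12 fits that left out 1 library, and those of Dcn in all 12. Dcn is also a fibroblast marker. Of 8 fibroblast and meninges markers, 1 was called higher, Dcn itself, and 1 lower, Igf2, in either genotype. Without Dcn the other 7 summed to 38.7 to 45 CPM in PI WT and 44.6 to 54.0 in CL WT, and to 38.8 to 49.5 in PI KO and 49.6 to 64.2 in CL KO. The most abundant of these 7 was Igf2, so it weighs most in the sums. It stood at 3.87 log2 CPM in PI WT and 4.63 in CL WT, and at 3.91 in PI KO and 4.68 in CL KO. Over all 8 markers the median log2 fold change was 0.23 in WT (5 of 8 above 0) and -0.01 in KO (4 of 8 above 0). The part of these cells in the Dcn result was not tested.

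Among 16 activin, BMP and GDF ligands and antagonists, 2 were higher and 2 lower in WT, and 1 was higher and 1 lower in KO. Bmp3, a BMP family ligand, was higher in WT by 0.57 (SE 0.09, adjusted p = 0.00188), and Fst, follistatin, which binds activins, was lower with a log2 fold change of -1.25 (SE 0.21, adjusted p = 0.00251). In KO they stood at 0.15 (adjusted p = 0.519) and -0.79 (adjusted p = 0.0876). Fstl1, a secreted follistatin-like protein, was higher by 0.56 (SE 0.10, adjusted p = 0.00383) in WT and 0.68 (SE 0.08, adjusted p = 0.00025) in KO. Nog, the BMP antagonist noggin, was lower in KO with a log2 fold change of -0.97 (SE 0.27, adjusted p = 0.037), a call held in 4 of 12 fits that left out 1 library (adjusted p = 0.0602 without CL KO replicate 6). In WT it stood at -0.22 (adjusted p = 0.656).

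Of 20 genes listed as transcriptional targets, 8 were higher and 1 was lower in WT, and 4 were higher and 1 was lower in KO. Their median log2 fold change was 0.39 in WT and 0.28 in KO. These genes also respond to other signals. Timp1, a metalloproteinase inhibitor, was higher by 2.71 (SE 0.36, adjusted p = 0.000591) in WT and 2.59 (SE 0.34, adjusted p = 0.000608) in KO. Its CL level was -0.19 and 0.44 log2 CPM, so its fold rests on few reads in CL. Cdkn1a, the cell-cycle inhibitor p21, was higher by 0.81 (SE 0.12, adjusted p = 0.000893) in WT and 1.18 (SE 0.16, adjusted p = 0.000732) in KO. Of the Id genes, which encode inhibitors of helix-loop-helix factors, Id2 was higher in WT by 0.33 (SE 0.05, adjusted p = 0.00238) and stood at 0.18 (SE 0.07, adjusted p = 0.132) in KO. Id4 was lower in both genotypes, with a log2 fold change of -0.54 (SE 0.10, adjusted p = 0.00497) in WT and -0.67 (SE 0.11, adjusted p = 0.00199) in KO. Id3 was called as higher in both as well, by 0.51 and 0.55.

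Several of these calls depended on the prior variance. With no trend of it, Itgb8, Acvr2a, Smad5, Smad9 and Skil were no longer called in WT, nor Thbs1, Skil and Nog in KO. Centring each group on its median gene ended the WT calls of Smad5 and Smad9, and Smad9 was also lost with the low-value filter and with the pseudocount. Apart from Id3 and the WT value of Id4, for which these fits were not read, the other calls named from the lists held under these settings and in 12 of 12 fits that left out 1 library. Acvr2a kept its call in 9 of 12.

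**Figure D4:**
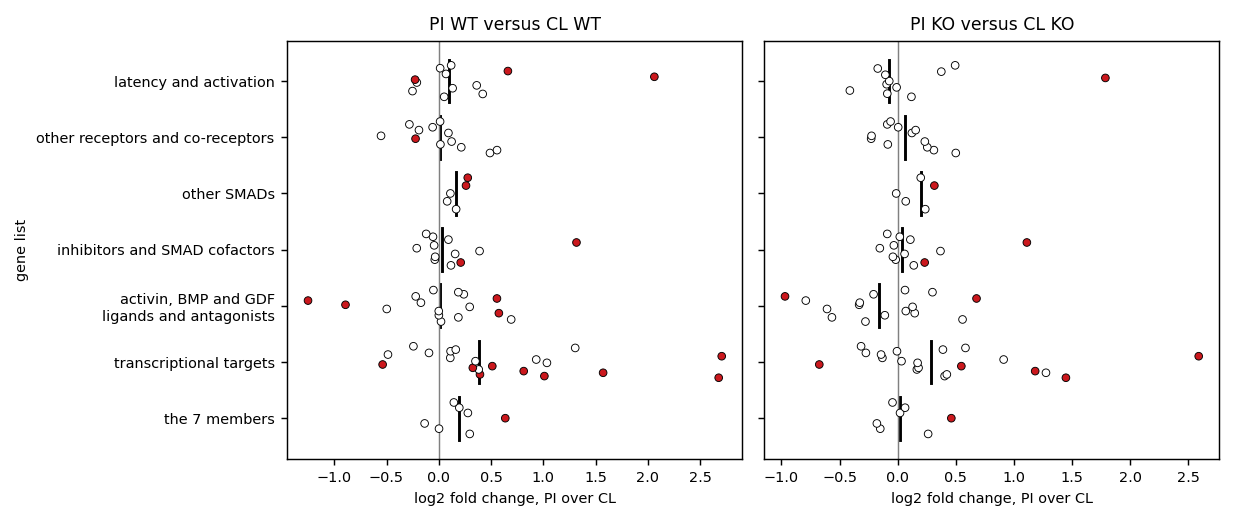
Log2 fold change of PI over CL (horizontal axis) for every listed gene of the 6 pathway lists and for the 7 members, WT on the left and KO on the right; each point is a gene, filled where the adjusted p is under 0.05, and the bar is the median. Targets have the highest list median, 0.39 in WT and 0.28 in KO, where that of the members is 0.20 and 0.02.

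The genes most like Tgfbr2 across libraries were Hcls1, Igfbp7 and Hspb1, by Pearson r over the 12 libraries of a table and ranked by the lower of the WT and KO value among 14211 genes. The r was 0.96 and 0.95 for Hcls1, 0.94 and 0.95 for Igfbp7, and 0.97 and 0.94 for Hspb1. Each of these genes was itself higher in PI, so the shared difference between the cortices enters r. The r was taken on deposited values, whose drawn-in spread within a group gives that difference more weight. Smad3, the member with the next smallest p, was most like Tfe3 (0.86 and 0.86), Rubcn (0.86 and 0.86) and Mfsd12 (0.89 and 0.84). These values describe the libraries and carry no test.

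Tgfbr2 is known to be expressed by microglia and by endothelium, so their markers are given beside it. Of 10 microglial markers 4 were higher and 2 lower in PI WT, and 4 were higher and 1 lower in PI KO. At an unadjusted p under 0.05 the count was 7 in WT and 6 in KO, and limma on the deposited values called 8 in either. Beside these and the marker lists that follow, the trimmed-mean test called 10.6% of all genes in WT and 10.0% in KO. Their summed level was 202 to 232 CPM in PI WT against 182 to 197 in CL WT, and 222 to 269 in PI KO against 195 to 213 in CL KO. Within the list C1qa (log2 fold change 0.69 in WT) and Fcrls (1.79) were higher while P2ry12 (-0.82) and Siglech (-0.96) were lower.

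Of 9 endothelial markers 0 were called in WT by the trimmed-mean test (3 at an unadjusted p under 0.05, 4 by limma on the deposited values). In KO 1 was called, as lower (4 at an unadjusted p under 0.05, 5 by limma on the deposited values, 4 of them higher). The log2 fold change was above 0 for 8 of 9 in either genotype, with a median of 0.30 in WT and 0.19 in KO, and the ninth, the abundant Slco1a4, stood at -0.48 in both. The endothelial sum was 98.1 to 143 CPM in PI WT and 96.2 to 139 in CL WT, and 111 to 122 in PI KO and 110 to 128 in CL KO. Of 7 pericyte and smooth muscle markers 0 were called in either genotype by the trimmed-mean test (2 in WT and 3 in KO at an unadjusted p under 0.05, 2 and 4 by limma on the deposited values). Of 3 border macrophage markers listed, 2 were higher in either genotype, with a sum of 15.4 to 21.4 CPM in PI WT against 10.9 to 12.3 in CL WT, and of 15.7 to 21.5 in PI KO against 11.1 to 12.9 in CL KO. Of the neutrophil and monocyte markers 1 of 9 was listed and was not called. The microglial and border macrophage sums were thus higher in PI, and the endothelial sums of PI and CL overlapped. Slco1a4 weighs most in the endothelial sums, at 5.24 log2 CPM in PI WT and 5.72 in CL WT. In KO it stood at 5.18 in PI and 5.66 in CL. Fcrls adds to the microglial difference, at 4.20 in PI WT and 2.41 in CL WT, and 4.65 in PI KO and 2.82 in CL KO. These sums were not taken without either gene. Taken singly, microglial markers were called in both directions. Most endothelial markers lay above 0, with none called as higher by the trimmed-mean test. The part of these cells in the Tgfbr2 change was not tested.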

How the data were processed

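Ribosome-depleted total RNA of cortex was sequenced in 24 libraries, from 600 ng RNA with the CORALL kit, per the labels' protocols. The values deposited by the authors are log2 CPM in 4 tables, per the file headers, 1 for each pair of groups. The submitters' processing notes name build mm10. The aligner, the counting, the gene filter and the scaling are not given in the sources used here. Values of 1 library in its 2 tables were apart by 0.0256 to 0.0364 log2 (median over genes), so tests were made within a table, except the interaction, which joins the difference of each table of PI and CL. No column of values was left over (0).

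In 100% of genes the 2 lowest and the 2 highest of 6 deposited values were tied at the quartile, a step that no label records. The 4 inner values were solved from this. The lowest and highest could not be, so spreads of deposited values are understated. The main test compared the means of the 4 inner values with a Winsorized error, moderated by limma 3.58.1 (R 4.3.3) with a trend on the mean, two-sided, with Benjamini-Hochberg adjustment over all genes of a table. It and its paired form were run on simulated data with independent libraries, so the paired form was not tried on paired data. SE and intervals (95%) of fold changes are those of this test. The SE of a group's level is the Winsorized error of that group alone, without moderation. Alternatives were limma on the deposited values, no trend, a filter at a mean of 1 log2 CPM, centring on the median gene, a pseudocount of 1 CPM, the animal as a block, and, chosen after seeing the data, each library left out.

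The titles pair the CL and PI library of an animal. The deviations of paired libraries from their group means correlated with a median of 0.08 in WT and 0.08 in KO, against -0.03 and -0.01 for unpaired ones. The PI library correlated best with the CL library of its own animal in 5 of 6 WT and 3 of 6 KO animals. These correlations use the deposited values, drawn-in ones among them. The main test left the pairing out. Depth was recovered from low CPM values, of which 81.7% to 91.2% per library came out whole within 0.05 read, so 3 reads equal 0.286 to 0.80 CPM, for counting error only. Inputs to a count test were not recovered, since 4 of 6 values per gene and group are not reads.

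The members and gene lists were chosen with earlier results of these data known. Beside the members, the text names up to 3 called genes of each list by p in each comparison of PI and CL, and the 3 genes most like each of the 2 members with the smallest p. Id3, Igf2, Slco1a4, Aqp4, Slc1a2 and the microglial markers named singly were chosen after their values were seen.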

Additional observations from a re-analysis of the deposited data

How the results depend on the processing

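Members called under limma on the deposited values numbered 5 (PI WT versus CL WT), 3 (PI KO versus CL KO), 1 (PI KO versus PI WT), 2 (CL KO versus CL WT) and 1 (interaction), and genes called numbered 6459, 6666, 2388, 2311 and 1940. That test takes the drawn-in spread at face value. With no trend of the prior variance the calls numbered 1015 in WT and 739 in KO, where the main counts were 1537 and 1440, and members called in KO fell to 0. Centring each group on its median gene also left 0 members called in KO, moved the share of higher calls from 49.1% to 37.7% in WT and from 50.8% to 36.7% in KO, and turned the sign of Tgfb3 in WT (-0.0305) and of Tgfbr3 in KO (-0.0153).

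Leaving out 1 library at a time gave 1 to 1 members and 1117 to 1468 genes in WT, 0 to 1 members and 900 to 1602 genes in KO, 0 to 0 members with 3 to 4 genes (PI) and 3 to 7 genes (CL) between genotypes, and 0 to 0 members and 0 to 0 genes in the interaction. The log2 fold change then crossed 0 for Tgfb3 in WT (-0.0504 to 0.0586), Smad7 (-0.0926 to 0.00352) and Tgfbr3 (-0.041 to 0.086) in KO, Tgfbr1 (-0.0418 to 0.0704), Smad3 (-0.0552 to 0.0277) and Tgfbr2 (-0.0216 to 0.102) between genotypes in PI, Tgfb3 (-0.00271 to 0.0847) and Tgfb2 (-0.143 to 0.000147) in CL, and Tgfbr1 (-0.0989 to 0.0132) and Tgfb2 (-0.105 to 0.0375) in the interaction. None of these was called. The cause of these shifts was not tested.

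With the animal as replicate block the calls numbered 2275 for WT, 2154 for KO and 1 for the interaction. The block changed the call of no member; Tgfbr2 in KO then had an adjusted p of 0.0078. No paired analysis was possible because replicate numbers mark different animals, in the comparisons of KO with WT. The low-value filter and the pseudocount changed neither the sign nor the call of any member. Tgfb2 and Tgfb3 had the fewest reads of the listed members, and the part of depth in their wider intervals was not tested. The intervals are not adjusted for the number of genes tested. In WT those of Tgfb2 (0.004 to 0.59), Tgfbr3 (0.07 to 0.49) and Smad3 (0.05 to 0.34) left out 0 without a call. A difference that was not called is thus not shown to be absent.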
